A study of Mus musculus with 6 samples.

Results

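The cytosolic ribosomal protein genes are the 83 protein-coding genes, of the 21603 genes with a value in each sample, whose symbol in the GENCODE M21 annotation is Rpl or Rps followed by a number, or is Rplp0, Rplp1, Rplp2 or Rpsa. S6 kinase genes and pseudogenes were left out. Of these, 51 encode proteins of the large subunit and 32 proteins of the small subunit. The rule used symbols only and no measured value. Their RNA was measured in lungs of C57BL/6 mice at P8, in 3 control and 3 Yap1,Wwtr1 iPCKO samples, by RiboTag, in which a Cre-dependent allele adds an HA tag to RPL22 and anti-HA beads recover RNA bound to tagged ribosomes. All 6 mice carried the Pdgfrb(BAC)-CreERT2 transgene and a single Rpl22 lox allele (Rpl22 lox/+), and all received tamoxifen from P0 to P2. Controls were Yap1 lox/+ Wwtr1 lox/+ (labelled Yap1+/-;Wwtr1+/-) and mutants Yap1 lox/lox Wwtr1 lox/lox (labelled Yap1-/-;Wwtr1-/-), so that recombined control cells had already lost a copy of each gene. The comparison asks how the ribosome-bound RNA of Pdgfrb-expressing cells differs when YAP1 and TAZ, the protein of Wwtr1, are both missing.

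Ribosomal proteins assemble with ribosomal RNA into the large subunit, which forms peptide bonds, and the small subunit, which reads the mRNA. Most are made in near-equal numbers, and many of their mRNAs begin with a C followed by a run of pyrimidines, the 5′ terminal oligopyrimidine (TOP) motif, through which mTOR signalling and LARP1 control their translation together. In RiboTag data these genes have a double place, since RPL22 is itself the handle by which the RNA was recovered, and ribosome-bound ribosomal protein mRNAs are among the transcripts recovered.

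Values were the authors' RPKM, that is, reads per unit of exon length and of sequencing depth. Yap1 was lower in every mutant (13.2, 11.5 and 12.4 RPKM in controls 1 to 3 against 5.76, 5.83 and 5.25 in iPCKO 1 to 3; log2 fold change -1.12, adjusted p = 0.000175, limma). Wwtr1 was not (60.4 ± 9.48 against 62.0 ± 1.63 RPKM, SD, n = 3; adjusted p = 0.82, limma). Whole-gene RPKM can include reads from exons outside a deleted part, so Wwtr1 gives no check of its label. The steps between low values implied 14.3 to 39.6 M reads a sample, the most in iPCKO 2 and control 3. Pericyte markers were abundant, with 10 genes summing to 2994 to 3803 RPKM in controls and 2753 to 3368 in mutants. Single genes of this list moved both ways, and limma called 3 higher and 2 lower. Cspg4 had 77.1 to 87.5 RPKM in controls and 158 to 182 in mutants, and Notch3 279 to 343 and 155 to 172. Summed markers of other cells lay higher in mutants without overlap for leukocytes (8 genes, 53.1 to 73.1 against 133 to 225 RPKM), neutrophils (9 genes, 86.4 to 128 against 446 to 4920), macrophages (8 genes, 15.6 to 24.7 against 28.9 to 54.9), platelets (6 genes, 7.84 to 9.75 against 22.8 to 64.7) and epithelium (9 genes, 570 to 656 against 833 to 884). Those of erythrocytes (6 genes) summed to 2217 to 2771 RPKM in controls and to 6016, 1363 and 2540 in iPCKO 1 to 3. Called higher by limma were 6 leukocyte, 5 neutrophil, 1 macrophage, 5 platelet and 1 epithelial gene, and 0 genes of these lists were called lower. Among the epithelial genes, Nkx2-1, Aqp5 and Epcam overlapped between the groups. The others (Sftpc, Sftpb, Sftpa1, Cdh1, Ager and Scgb1a1) were higher in all mutants. No marker on any list was at 0 in all samples.

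The sequences below show pyrimidine runs near the annotated starts of 6 of these genes and the exon that carries the tag. Of the 83 genes, 63 matched RefSeq start sites (GRCm38.p6), 75 sites in all. A C followed by 4 pyrimidines (C or T) at the annotated first base, on the coding strand, was found at 13 of the 75 sites (17.3%), against 2.51% of all 32851 sites in the table. A run of at least 8 pyrimidines within 50 bases of the start was found at 58 of 75 (77.3%), against 35.7% of all sites, and the median longest run was 10 bases against 7. These are matches of letters near annotated starts. The 30-base windows that hold the longest run are given for Rpl22 (the tagged gene) at chr4:152325679-152325708, Rpl22l1 (its paralogue) at chr3:28805499-28805528, Rpl9 and Rps3a1 (the 2 genes that departed most from the rest) at chr5:65391383-65391412 and chr3:86142623-86142652, Rpl39 at chrX:37085173-37085202 and Rps6 at chr4:86857349-86857378. Rpl22 and Rpl22l1 lie on the plus strand and the others on the minus strand, all are written 5′ to 3′ on the coding strand, and capitals mark the run.
Rpl22: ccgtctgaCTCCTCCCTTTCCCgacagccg
Rpl22l1: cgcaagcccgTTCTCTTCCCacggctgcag
Rpl9: acgaaagacgTTCTCTCTTTgccccatcta
Rps3a1: acgtagacggcgCTCCCCgcccggctcgcg
Rpl39: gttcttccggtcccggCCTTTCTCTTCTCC
Rps6: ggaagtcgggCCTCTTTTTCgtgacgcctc
Rps3a1 had the shortest run of the 6, with 6 bases, under the minimum of 8, and Rpl22 and Rpl39 the longest, with 14. The run of Rpl39 reaches the end of the 50 bases searched after the start, so its full length is not known. Rps4x and Rpl7l1, whose windows are not shown, had runs of 7 bases, also under the minimum. Counted from the RefSeq first base (0), the runs began at -39 in Rpl22, 1 in Rpl22l1, 29 in Rpl9, 28 in Rps3a1, 36 in Rpl39 and -1 in Rps6. Rpl22l1 and Rps6 alone of these 6 thus had the run at the RefSeq start. In the same order, these starts lay 141, 72, 13, 34, 180 and 45 bases from that of the main GENCODE mRNA. The positions therefore depend on the start used.

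The RiboTag allele surrounds the last coding exon of Rpl22 with loxP sites and places an HA-tagged copy behind it, so that Cre swaps the former for the latter. The coding part of that exon, exon 4 of 4, is 145 bases long (chr4:152332280-152332424, plus strand, GRCm38), and the stop codon is in capitals.
Rpl22 exon 4: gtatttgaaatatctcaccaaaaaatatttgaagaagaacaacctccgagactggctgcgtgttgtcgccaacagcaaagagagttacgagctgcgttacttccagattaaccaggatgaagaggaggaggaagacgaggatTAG
Its paralogue Rpl22l1, which encodes a protein that can take the place of RPL22 in the ribosome, has a coding sequence 69.3% identical to that of Rpl22 (273 of 394 aligned positions, coding sequences of 387 and 369 bases).

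In RPKM, both members of this pair differed between the groups by less than the spread between samples. Rpl22 (ENSMUSG00000028936) stood at 33.5, 29.2 and 27.7 RPKM in controls 1 to 3 and at 37.8, 27.1 and 28.6 RPKM in iPCKO 1 to 3. Its group means were 30.1 ± 2.99 and 31.2 ± 5.80 RPKM (SD, n = 3), and its log2 fold change was 0.04 (95% interval -0.28 to 0.35, adjusted p = 0.89, limma; exact permutation p = 0.9, two-sided). The groups overlapped, and the sample with the most Rpl22 was iPCKO 1. The log2 fold change was -0.11 without iPCKO 1 and -0.02 without control 3, so its sign changed with single samples. Measured from the median of the ribosomal protein genes in each sample, Rpl22 was lower in mutants without overlap. Its log2 values were then 5.13, 4.93 and 5.03 in controls and 4.84, 4.86 and 4.81 in mutants (difference -0.19). On that scale 7 of the 80 tested genes were lower without overlap and 13 higher. Since all 6 mice carried the same Rpl22 alleles, and RPKM do not separate tagged from untagged transcripts, these values are those of both forms together. Rpl22l1 had 45.8, 54.3 and 48.8 RPKM in controls and 67.4, 44.1 and 51.8 RPKM in mutants. The fitted log2 fold change was 0.11 (95% interval -0.23 to 0.46, adjusted p = 0.66, limma; exact permutation p = 0.7). It too was highest in iPCKO 1, without which the log2 fold change was -0.05. Measured from the median of the ribosomal protein genes in each sample, the difference of Rpl22l1 was -0.11, with overlap. The ratio of Rpl22 to Rpl22l1 RPKM was 0.613 ± 0.105 in controls and 0.576 ± 0.0333 in mutants (n = 3, exact permutation p = 0.8). With 3 samples a group, this test cannot go below 0.1.

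In levels, the ribosomal protein genes were among the most abundant in the recovered RNA but far from even. Together they held 3.28%, 3.44% and 3.06% of all summed RPKM in controls 1 to 3 and 4.32%, 3.22% and 3.49% in iPCKO 1 to 3. Of the 83 genes, 80 reached the level needed for testing, 1 RPKM or more in 3 or more samples, and 76 of these 80 lay above the median of all tested genes. Their mean over the 6 samples had a median of 79.2 RPKM, against 8.67 RPKM for all 12034 tested genes, and 41 were among the 500 most abundant. The highest level, that of Rpl8 at 408 RPKM, was 64.6-fold above the lowest among the tested, that of Rpl21 at 6.31 RPKM.

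Rpl8 encodes a large subunit protein next to the peptidyl transferase centre. It stood at 369, 384 and 343 RPKM in controls and at 569, 384 and 398 RPKM in mutants. Rpl4 (329 RPKM), Rpl19 (297 RPKM) and the stalk gene Rplp1 (296 RPKM) followed in mean level. Rpl8 lay above Rpl4, and Rpl4 above Rpl19, in all 6 samples, whereas Rpl19 and Rplp1 changed places from sample to sample, with Rplp1 between 215 and 429 RPKM. At the other end stood Rpl21 (6.31 RPKM), Rps15a (6.33 RPKM), Rps19 (8.44 RPKM) and Rpl7a (14.1 RPKM). Rpl21 and Rps15a changed places between samples, and Rps19 lay above both in all 6. For Rpl21 the implied number of reads was 330 to 759 a sample.

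Exon length and sequence shared with copies bear on these levels. RPKM divide by exon length, and the exon length that the authors used is not stated. If it counts every exon of every transcript, a gene with long minor transcripts is divided by more bases than its main mRNA has: Rps15a has 6270 bases of merged exons, and the median over the tested ribosomal protein genes was 1806 bases, against 843 bases for the main mRNA. Across these 80 genes mean RPKM and merged exon length had a Spearman rho of -0.43, as a description over genes of the same libraries. Ribosomal protein genes also have many retrotransposed copies, whose reads can be placed on the copy or dropped as ambiguous. The median gene shared 51.5% of the 50-base words of its main mRNA with some other annotated gene, and 79 of the tested genes shared words with at least 1 pseudogene. Sharing reached 98.6% in Rps27, and its rho with mean RPKM was -0.05. Levels of single genes are therefore uncertain where sharing was high.

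The 3 genes below the level for testing are duplicates with narrow expression. Rpl3l, the form of RPL3 in skeletal and heart muscle, was listed at 0, 0.0349 and 0 RPKM in controls and at 0.0862, 0.0921 and 0.0427 RPKM in mutants, which is at most 6 implied reads. Rpl39l, a testis form, was listed at 0.122 RPKM in control 1 and at 0 in the other samples. Rpl10l, also a testis form, was listed at 0 in all 6. Other duplicates were well expressed. The X-linked small subunit gene Rps4x had 177 ± 13.7 and 194 ± 29.8 RPKM in controls and mutants. Rpl7l1, whose protein acts in ribosome assembly, had 28.1 ± 2.35 and 26.2 ± 2.86 RPKM. Rps27l, a p53 target, had 42.1 ± 7.33 and 43.9 ± 4.39 RPKM. None of these 3 differed between the groups beyond its spread (adjusted p from 0.58 to 0.77, limma, n = 3). Rps4l is a pseudogene in the annotation and was not counted.

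When the groups were compared across all genes, the ribosomal protein genes as a set moved little, and 1 of 80 passed the thresholds (adjusted p below 0.01, log2 fold change beyond 0.5 in either direction), against 6.79% of all genes tested. That gene was Rpl9, higher in mutants (1.25% of the tested ribosomal protein genes, against 4.11% of all genes called higher). None was called lower (limma), against 2.68% of all genes. At an unadjusted p below 0.05 the count was 16, or 20%, against 29.7% of all genes. An adjusted p below 0.05 was reached by Rpl9 and Rps3a1 alone, and 15.2% of all genes reached it. The share of ribosomal protein genes was below that of all genes at each of these thresholds.

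The signs, on the other hand, were uneven. Of the 80 log2 fold changes 76 were above 0, against 50% of all genes, and 4 were below 0, among them Rps3a1, Rpl21 and Rpl7l1. Their median was 0.22 (quartiles 0.15 and 0.30, range -0.56 to 0.68), with a median standard error of 0.14, while the median over all tested genes was 0.00. The median stayed above 0 under each other scaling tried, between 0.15 and 0.22. In 72 genes the log2 fold change lay within 0.25 of the median. In the plot of log2 fold changes most intervals cross 0 and nearly all hold the common median. The 3 mutants lay above the 3 controls in 20 genes (25%), against 18.3% of all genes. They lay below them in 1, Rps3a1, against 17.1%.

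**Figure D1:**
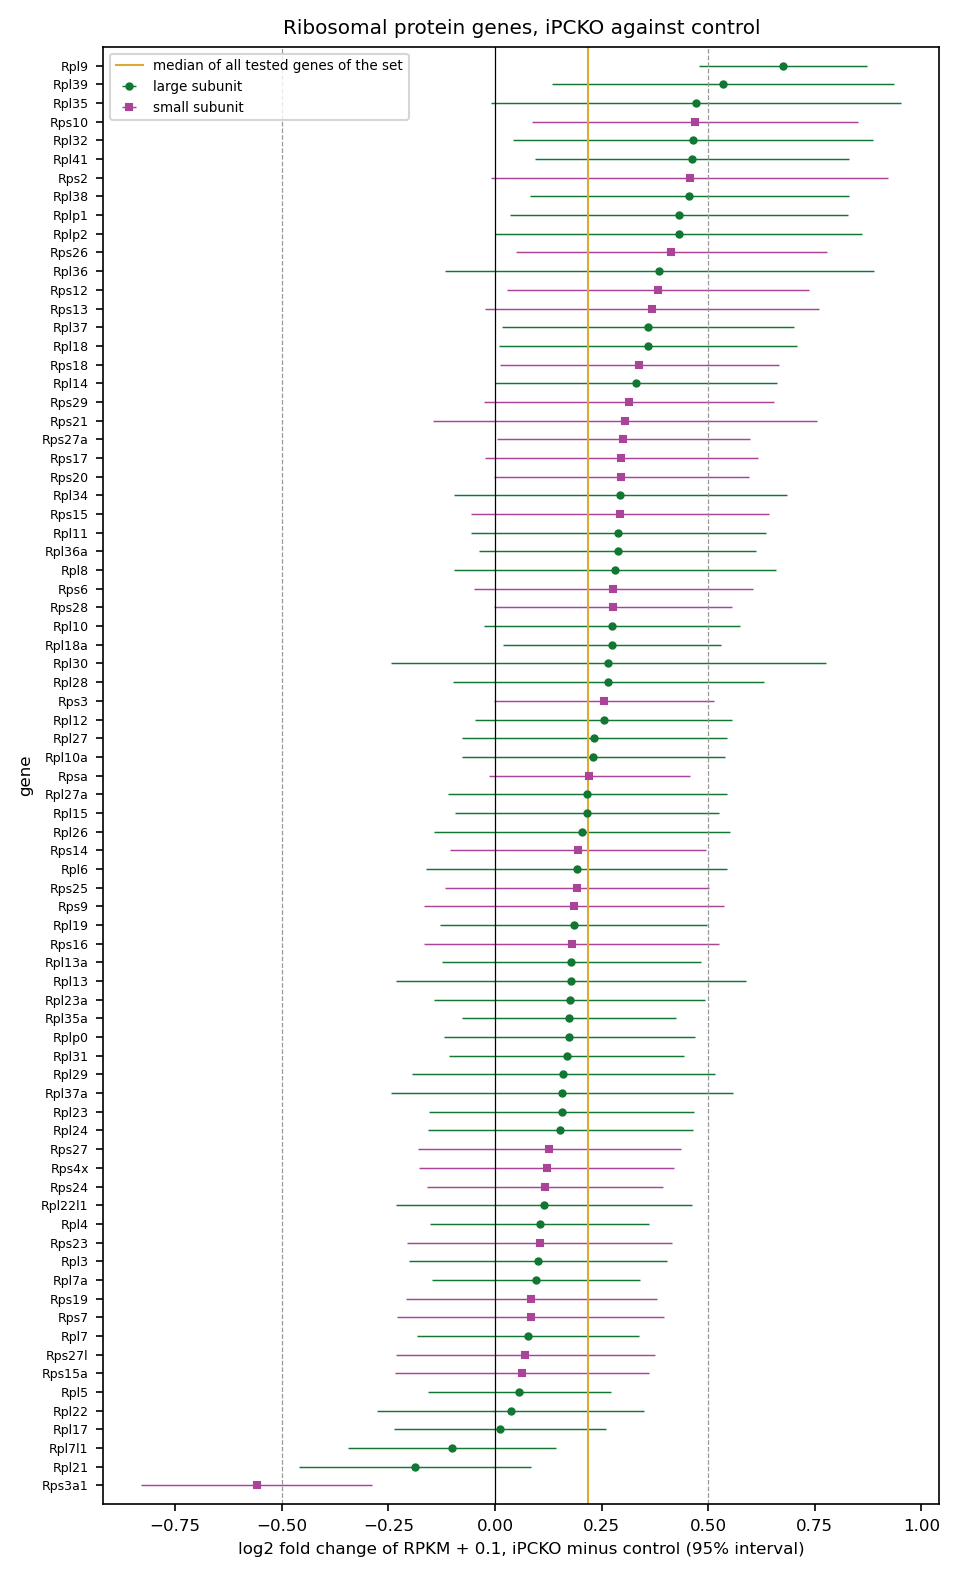
Log2 fold change of RPKM + 0.1 (iPCKO minus control, x axis) for 77 of the 80 tested ribosomal protein genes (y axis, ordered), with 95% intervals from limma; circles are large subunit and squares small subunit genes, the yellow line is the median of all 80, 0.22, and dashed lines mark the fold threshold of 0.5. Rpl9 at 0.68 and Rps3a1 at -0.56 stand at the ends.

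These differences between the groups rested largely on 1 mutant. With each gene set to its own mean over the 6 samples, the median ribosomal protein gene stood at -0.06, -0.06 and -0.23 on the log2 scale in controls 1 to 3, and at 0.40, -0.10 and 0.03 in iPCKO 1 to 3. The plot of deviations by sample shows iPCKO 1 above all other samples and control 3 below them, with the median of iPCKO 2 within the range of the controls and that of iPCKO 3 slightly above it. In 75 of the 80 genes (93.8%) the highest value was that of iPCKO 1, against 20.8% of all genes, and in 64 (80%) the lowest was that of control 3, against 16.4%. In iPCKO 1 the genes exceeded the mean of the other 5 samples by a median of 0.48 (78 of 80 above), and in control 3 they lay below it by a median of -0.27 (77 of 80 below).

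Without iPCKO 1 the median log2 fold change was 0.07. The iPCKO mean share of summed RPKM, 3.68% ± 0.575 against 3.26% ± 0.192 in controls (SD, n = 3), was 3.36% without that sample. The spread showed the same sample. Within mutants the median coefficient of variation of a ribosomal protein gene was 18.4%, against 8.89% for all tested genes, whereas within controls it was 8.38% against 9.32%. The genes varied together over the 6 samples: the median Pearson's r over all 3160 pairs was 0.887, and 72 of 80 had an r over 0.8 with the profile of their median. These correlations describe the same 6 libraries, of which iPCKO 1 stands apart. The genes that followed the common profile least were Rpl21 (r = -0.29), Rps3a1 (-0.22) and Rpl7l1 (0.10).

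**Figure D2:**
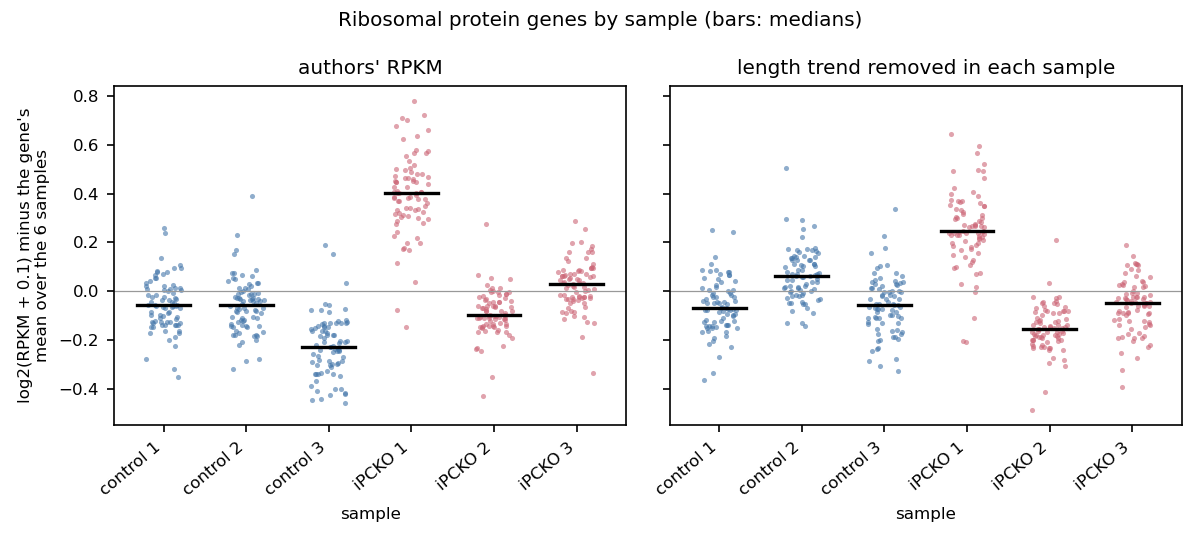
Log2(RPKM + 0.1) of each tested ribosomal protein gene minus its mean over the 6 samples (y axis) in each sample (x axis; blue control, red iPCKO, bars are medians), from the authors' RPKM (left) and after a trend on transcript length was removed within each sample (right). The median of iPCKO 1 is 0.40 on the left and 0.25 on the right, above every other sample in both.

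Transcript length moved with these values in iPCKO 1 and control 3, whereas the markers of red cells did so in iPCKO 1 but not in control 3. Ribosomal protein mRNAs are short, and other short mRNAs also stood high in iPCKO 1 and low in control 3: the 98 other tested genes with a main mRNA under 500 bases had medians of 0.25 in iPCKO 1 and -0.28 in control 3, against 0.45 and -0.25 for the 10 ribosomal protein genes of that length. From 700 to 1000 bases the medians were 0.17 and -0.13 in 445 other genes and 0.38 and -0.23 in 25 ribosomal protein genes. From 3000 bases upward other genes stood at -0.01 and 0.04. The plot of deviations by length shows the slope among the other genes, with the ribosomal protein genes of iPCKO 1 above the other genes at each length.

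Within the set, the 28 genes with a main mRNA under 700 bases had a median log2 fold change of 0.29, and the 52 longer ones 0.19. With the length trend of the other genes removed within each sample, an alternative chosen after seeing the data, the median log2 fold change was 0.02, with 47 genes above 0 and 33 below. iPCKO 1 then stood at 0.25, iPCKO 2 at -0.15 and iPCKO 3 at -0.05, against -0.07, 0.06 and -0.06 in controls. Summed erythrocyte markers were likewise highest in iPCKO 1 (5 of the 6 genes), with Alas2 at 64.1 RPKM there and between 11.5 and 33.5 RPKM in the other samples. Their lowest sum was that of iPCKO 2 (1363 RPKM), and control 3 (2430 RPKM) lay above control 1 (2217 RPKM). The part of transcript length and of RNA from erythrocytes, leukocytes and the other cells whose markers moved in the values of the ribosomal protein genes was not tested. In bulk RNA, fewer cells of a type and less RNA per cell cannot be told apart.

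**Figure D3:**
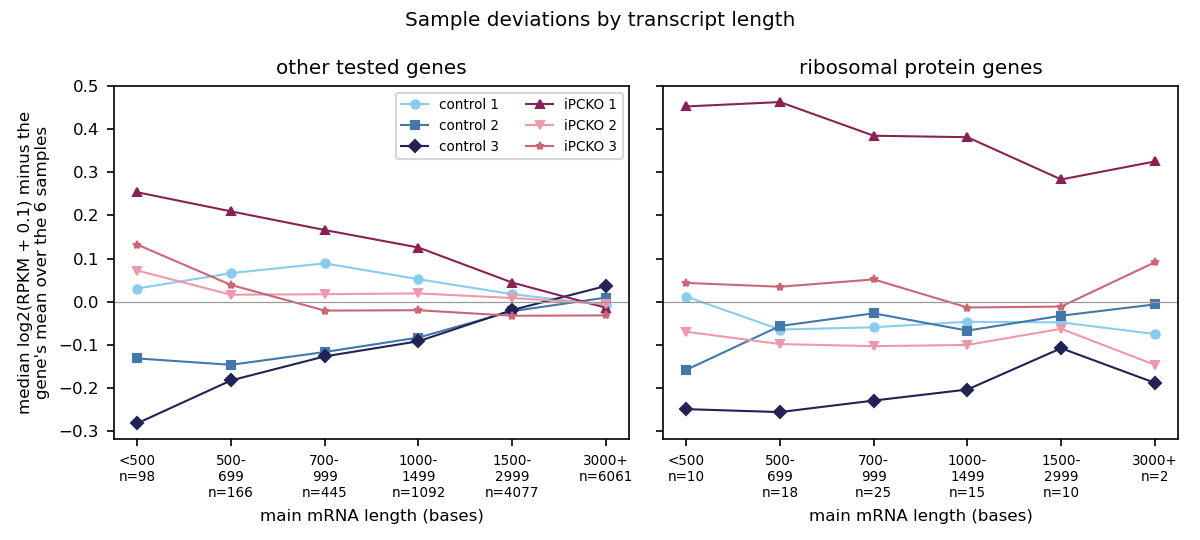
Median deviation of each sample from the genes' means over the 6 samples (y axis, log2) by length class of the main mRNA (x axis, n is the number of genes), for other tested genes (left) and ribosomal protein genes (right), 1 line a sample. iPCKO 1 falls from 0.25 to -0.01 among other genes and lies between 0.28 and 0.46 among ribosomal protein genes.

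Rpl9 and Rps3a1 had the log2 fold changes farthest from the common median. Rpl9 (ENSMUSG00000047215, chr5:65388364-65391444), which encodes a large subunit protein near the base of the stalk, had 15.7, 16.5 and 15.2 RPKM in controls and 27.3, 24.2 and 24.4 RPKM in mutants. All mutants lay above all controls, and iPCKO 2 and 3 were as clear of the controls as they were close to iPCKO 1. Its means were 15.8 ± 0.641 and 25.3 ± 1.74 RPKM (n = 3), and its log2 fold change was 0.68 (95% interval 0.48 to 0.87, adjusted p = 0.00136, limma). Measured from the median of the ribosomal protein genes in each sample, the difference was 0.45, again without overlap. On that scale 13 of the 80 tested genes had mutants above controls without overlap. The call narrowly depended on control 3, without which the log2 fold change was 0.65 and the adjusted p 0.01003, and with the length trend removed it was 0.46, under the fold threshold.

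The value of Rpl9 is uncertain as that of a single gene, since 93.3% of the 50-base words of its main mRNA occur in other annotated genes, 12 of them pseudogenes. The copy that shares most, Rpl9-ps6 (chr19:32465865-32466578), is annotated as protein coding in spite of its name and lies outside the rule. It holds 86.1% of the words of Rpl9 and was the more abundant of both. Rpl9-ps6 stood at 65.0, 62.7 and 54.5 RPKM in controls and at 140, 108 and 99.9 RPKM in mutants. It was called higher as well, with means of 60.7 ± 5.50 and 116 ± 21.01 RPKM (n = 3; log2 fold change 0.92, adjusted p = 0.00305, limma). Reads of the parent and its copy cannot be told apart where their letters are the same, so their values are not independent. Rpl9-ps6 was picked out after its values were seen.

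Rps3a1 (ENSMUSG00000028081, chr3:86137940-86142702) encodes a small subunit protein at the mRNA exit and was the sole gene of the set with mutants below controls in all samples. It had 151, 166 and 144 RPKM in controls and 120, 93.9 and 100 RPKM in mutants, or 154 ± 11.1 and 105 ± 13.6 RPKM (SD, n = 3), so that mutants had 68.1% of the control level. Its log2 fold change was -0.56 (95% interval -0.83 to -0.29), and its adjusted p of 0.015 (limma) missed the threshold of 0.01. Measured from the median of the set in each sample the difference was -0.78, without overlap. On that scale 7 of the 80 tested genes had mutants below controls without overlap. The result turned on iPCKO 1, the highest of the mutants: without it the log2 fold change was -0.66 and the adjusted p 0.00472, past both thresholds. Rps3a1 also passed both with quantile normalization (-0.66, adjusted p = 0.00477, limma) and with RPKM rescaled to the same sum (-0.62, adjusted p = 0.00588, limma), which gave 1 ribosomal protein gene higher and 1 lower. Of the words of its mRNA, 71.0% are shared with other genes, 9 of them pseudogenes. The gene lies 28.6 Mb from Wwtr1, which is floxed in these mice. On chromosome 3 as a whole 8.76% of the 582 tested genes were called, 33 higher and 18 lower, against 6.79% of all genes tested. Of the 26 tested genes that start within 2 Mb of Rps3a1, 2 were called.

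**Figure D4:**
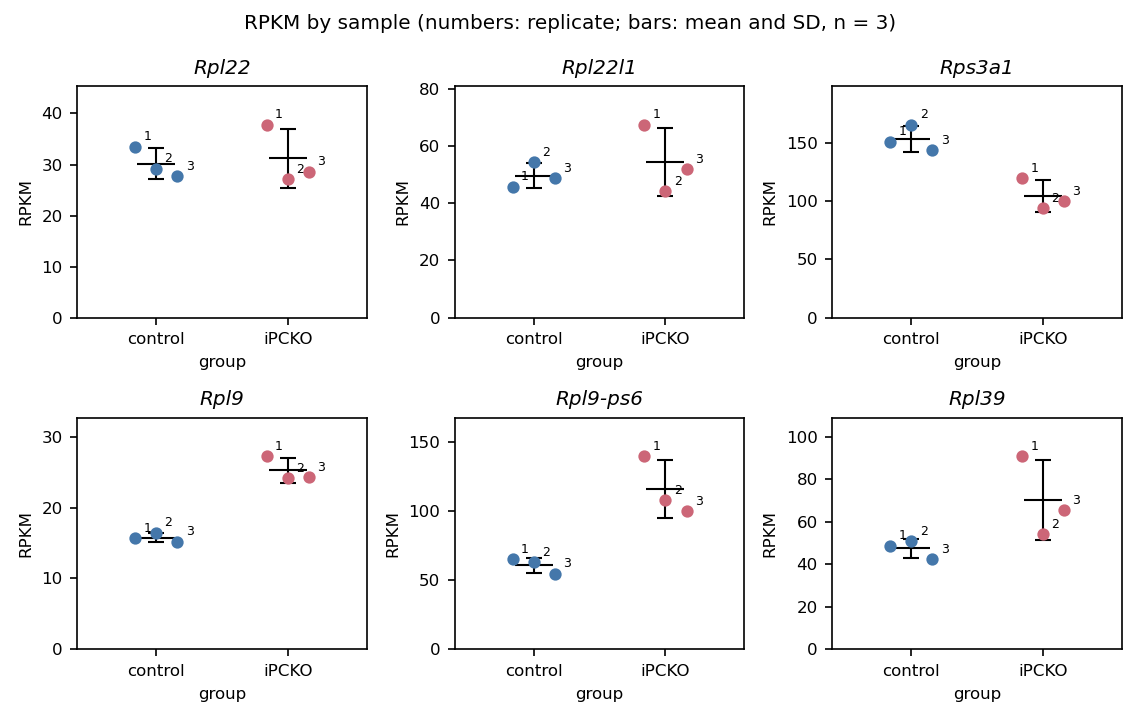
RPKM (y axis) of Rpl22, Rpl22l1, Rps3a1, Rpl9, its copy Rpl9-ps6 and Rpl39 in each sample (points, numbered by replicate) by group (x axis), with mean and SD (n = 3). The groups overlap for Rpl22 and Rpl22l1, and for Rps3a1 the mutants, at 93.9 to 120 RPKM, lie below the controls, at 144 to 166 RPKM.

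The next largest log2 fold changes did not pass. Rpl39, which encodes a very small protein of the exit tunnel and is X-linked, had 48.8, 50.9 and 42.6 RPKM in controls and 91.0, 54.2 and 65.4 RPKM in mutants (log2 fold change 0.54, adjusted p = 0.077, limma). Its groups did not overlap, yet iPCKO 2 lay close to control 2. Without iPCKO 1 the log2 fold change of Rpl39 was 0.33. Rpl35 (0.47), Rps10 (0.47) and Rpl32 (0.46) followed, with adjusted p from 0.10 to 0.18 (limma, n = 3), and each was highest in iPCKO 1, at 80.7, 66.9 and 371 RPKM. At the other end, after Rps3a1, stood Rpl21 at -0.19, Rpl7l1 at -0.10 and Rpl17 at 0.01, with adjusted p from 0.33 to 0.96 (limma, n = 3). Rpl21, whose level was low, had 6.34, 7.39 and 6.43 RPKM in controls and 5.65, 5.28 and 6.79 RPKM in mutants, so the groups overlapped.

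Divided by place in the ribosome, the genes gave similar values. The median log2 fold change was 0.22 in the 48 tested large subunit genes (46 above 0) and 0.22 in the 32 small subunit genes (30 above 0). The stalk, which recruits translation factors, is formed by the products of Rplp0, Rplp1 and Rplp2. Rplp1 and Rplp2 each had a log2 fold change of 0.43 (adjusted p 0.14 and 0.17, limma, n = 3), with Rplp2 at 54.2, 53.4 and 47.4 RPKM in controls and at 97.4, 57.4 and 60.2 RPKM in mutants. In both, most of the difference was that of iPCKO 1. Rplp0, the longer mRNA of the 3, had 149 ± 11.1 and 169 ± 26.0 RPKM and a log2 fold change of 0.17.

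Rpl5 and Rpl11, whose proteins bind 5S ribosomal RNA and hold back MDM2 when ribosome assembly fails, had log2 fold changes of 0.06 and 0.29 (adjusted p 0.73 and 0.24, limma, n = 3). Rpl5 was among the steadiest genes, with 76.0, 77.0 and 74.8 RPKM in controls and 87.4, 75.1 and 75.0 RPKM in mutants. Rpsa, which encodes a small subunit protein first known as a laminin receptor, had 46.7 ± 2.27 and 54.7 ± 6.25 RPKM. Its log2 fold change was 0.22, with mutants above controls in all samples but an adjusted p of 0.19 (limma, n = 3). Rps6, whose protein is the substrate of S6 kinase, had 25.4 ± 3.08 and 31.0 ± 5.47 RPKM, and Rps27a, which encodes a fusion with ubiquitin, 72.3 ± 6.76 and 89.6 ± 14.2 RPKM (log2 fold changes 0.28 and 0.30, adjusted p 0.24 and 0.16, limma, n = 3). The 4 X-linked genes had a median log2 fold change of 0.28 and the 4 genes on chromosome 3 one of 0.12. The 7 genes on chromosome 9, which holds Yap1, had a median of 0.19.

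Some copies of the ribosomal protein genes were listed at higher levels than their parents. Of 444 annotated genes that share at least 100 words of 50 bases with 1 of 71 ribosomal protein genes, 45 had values and 20 reached the level for testing. Not all of the 20 are copies. Some are neighbours that overlap a ribosomal protein gene in position, among them Trappc4 (Rps25), Tbc1d8 (Rpl31) and Sphk2 (Rpl18). Rps27rt, an intronless copy that shares 98.6% of the words of Rps27, had 170 ± 9.76 and 207 ± 41.8 RPKM in controls and mutants, and was highest in iPCKO 1 at 255 RPKM. Rps27 itself had 117 ± 10.1 and 128 ± 21.2 RPKM. Rpl10-ps3 was likewise more abundant than Rpl10, its parent on the X chromosome, with 37.1 ± 2.35 and 48.0 ± 11.2 RPKM against 27.5 ± 2.62 and 33.5 ± 5.59 RPKM. Besides Rpl9-ps6, 1 of the 20 was called, Fam69a, a neighbour that overlaps the end of Rpl5. Fam69a was higher in mutants (3.31 ± 0.297 and 5.04 ± 0.126 RPKM, n = 3; log2 fold change 0.60, adjusted p = 0.00656, limma), while the log2 fold change of Rpl5 was 0.06. The genes named here were chosen after their values were seen.

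Genes that make, regulate or work with the ribosome were set beside these values. In 7 lists limma called none of them, against 6.79% of all genes tested. For the counts below, 50% of all genes had a log2 fold change above 0 and 29.7% an unadjusted p below 0.05. The 4 ribosomal or ribosome-bound genes outside the symbol rule had a median log2 fold change of 0.28 (4 above 0, 1 at an unadjusted p below 0.05). Fau and Rpl36al, which encode further ribosomal proteins, had 0.28 each, and Rack1, which sits on the small subunit, 0.18. All 3 were highest in iPCKO 1, as most ribosomal protein genes were.

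Translation factors and other genes known for TOP transcripts (Hnrnpa1, Nap1l1, Npm1 and Tpt1 among them) had a median log2 fold change of 0.14 (14 of 17 tested, 11 above 0, 1 at an unadjusted p below 0.05). Their most abundant genes were close to even: Eef1a1 had 865 ± 45.6 and 923 ± 66.8 RPKM and Eef2 400 ± 38.7 and 376 ± 38.0 RPKM (n = 3). The 27 initiation factors had a median of 0.11 (18 above 0, 8 at an unadjusted p below 0.05) and the 34 ribosome biogenesis genes one of 0.13 (29 above 0, 6 at an unadjusted p below 0.05). RNA polymerase I and rDNA transcription genes (11, median 0.05) had 7 above 0, with 2 at an unadjusted p below 0.05. The 76 of 77 mitochondrial ribosomal protein genes tested, whose products serve the separate ribosome of mitochondria, had a median of 0.04, with 48 above 0 and 10 at an unadjusted p below 0.05.

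The 18 regulators of ribosome production had a median of 0.03 (11 above 0, 2 at an unadjusted p below 0.05). Mtor (9.84 ± 0.311 and 10.3 ± 0.386 RPKM) and Larp1 (18.2 ± 0.399 and 19.3 ± 0.535 RPKM), which together set the translation of TOP mRNAs, stood nearly level. Myc, which drives transcription of ribosome genes, had 5.77, 7.56 and 5.36 RPKM in controls and 9.68, 8.46 and 7.54 RPKM in mutants (log2 fold change 0.46, adjusted p = 0.071, limma). Its relative Mycn had 2.64 ± 0.693 and 1.81 ± 0.485 RPKM (log2 fold change -0.52, adjusted p = 0.17, limma, n = 3). Neither passed, and the groups overlapped for both.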

How the data were processed

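Stranded total RNA libraries of anti-HA precipitated RNA were made from 3 control and 3 Yap1,Wwtr1 iPCKO lungs. The authors mapped reads to mm10 (GRCm38) with TopHat, counted them with HTSeq 0.6.1 and tested them with DESeq2, and deposited RPKM for 21603 genes in each sample. The deposited RPKM carry the authors' division by depth and by an exon length that is not stated. Symbols and coordinates are from GENCODE M21 (21452 genes matched), start sites from RefSeq.

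Log2(RPKM + 0.1) was fitted with limma 3.58.1 (R 4.3.3, eBayes with intensity trend) on group, without further scaling, for 12034 genes (1 RPKM or more in 3 or more samples), with Benjamini-Hochberg adjustment over all of them. Fold changes on this scale understate the change of low genes. Calls needed an adjusted p below 0.01 and a log2 fold change beyond 0.5 in either direction. Single values were compared by the exact permutation test, two-sided. p-values measure the spread between 3 samples a group. Reads were inferred from steps in the RPKM of genes with a single transcript (77.1% to 80.2% of low values fell on whole reads, but 47.2% to 61.1% in genes with several), so no count test was run.

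Main mRNAs were the best supported principal coding transcripts, and shared words were counted on both strands over all annotated transcripts. The genes, lists and rule for named genes were chosen with earlier results of these data known. The rule took Rpl22 and other duplicates, the stalk, 5S, Rpsa, Rps6 and Rps27a genes, the 5 highest and 5 lowest levels, called genes and the 5 largest log2 fold changes each way. Some genes under it are not reported here. Of the other marker lists, sums in controls and mutants were 197 to 209 and 192 to 207 RPKM for endothelial, 288 to 350 and 286 to 336 for fibroblast, and 915 to 1117 and 1079 to 1265 for smooth muscle markers. Single genes moved within these sums. Limma called 1 of 8 endothelial genes higher, and 2 of 6 smooth muscle genes higher and 1 lower. It called 0 of 7 fibroblast genes. Alternatives were the replicate block, pseudocounts of 1 and 0.01, other filters and scalings, no intensity trend, looser thresholds and leaving out each sample. Sample weights, removal of a length trend (loess, span 0.5) and leaving out control 3 and iPCKO 2 together were added after seeing the data. Scripts were tested on simulated data. The tools were Python 3.11.15, scipy 1.17.1, pandas 2.3.3, numpy 2.4.6, matplotlib 3.10.9 and biopython 1.88.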

Additional observations from a re-analysis of the deposited data

How the results depend on the processing

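The median log2 fold change kept its sign under all 16 alternatives (0.02 to 0.32), as did the difference in share of summed RPKM under all 7. Not all of these could differ from the main result. The replicate block, in a balanced design, and the other filters leave this median as it was. The filter likewise has no part in the share. The number of ribosomal protein genes called, 1, became 2 (Rpl9 and Rps3a1) with quantile normalization, with RPKM rescaled to the same sum, at an adjusted p below 0.05 with or without the fold threshold, and with sample weights. It became 0 without control 3 and iPCKO 2 together, and lay between 0 (without control 3) and 2 (without iPCKO 1) when each sample was left out. With the length trend removed it was again 1, but Rps3a1 (-0.72, adjusted p = 0.00318, limma) in place of Rpl9 (0.46, under the fold threshold). Across all genes the number called lay between 162, without that pair of samples, and 1824.

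Rpl17, Rpl19, Rpl22, Rpl22l1, Rpl5, Rps15a, Rps27l and Rps4x changed sign under some alternatives, and the other named genes tested kept theirs under all 20. Among the 20, the replicate block, the other filters, the looser thresholds and the fit without intensity trend could not change a sign. They leave the log2 fold change of each gene as it was. With quantile normalization Rps4x, Rpl5 and Rpl17 had log2 fold changes of -0.0069, -0.0177 and -0.0786. With RPKM rescaled to the same sum Rpl22, Rpl5 and Rpl17 had -0.0259, -0.0064 and -0.0523. Sample weights gave -0.0432 for Rpl22, -0.0145 for Rps4x, -0.133 for Rpl22l1, -0.149 for Rps15a and -0.0340 for Rpl17. With the length trend removed, Rpl22 had -0.0162, Rps4x -0.0432, Rps27l -0.229, Rpl22l1 -0.163, Rpl19 -0.0290 and Rpl17 -0.196. When each sample was left out, the range was -0.109 to 0.131 for Rpl22, -0.0504 to 0.255 for Rpl22l1, -0.0732 to 0.0683 for Rpl17, -0.00079 to 0.199 for Rps4x, -0.0137 to 0.209 for Rps27l, -0.0165 to 0.0942 for Rpl5 and -0.0425 to 0.194 for Rps15a. The cause was not tested.

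The replicate numbers of the labels did not pair the samples: deviations of same-numbered samples correlated with r of 0.24, 0.09 and 0.02. With the replicate block, the number of ribosomal protein genes called was 1. The log2 fold change of Rpl22 stayed at 0.04, since in this balanced design a block cannot change it. With 3 samples a group, the median standard error of 0.14 on the log2 scale limits which differences could be seen. Depth was not tested as a limit.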
